A study of Rattus norvegicus with 8 samples.

Results

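Transcripts of the complement system were followed in cultured peripheral blood mononuclear cells (PBMCs), a fraction made up of lymphocytes and monocytes, that were given plasma of 4 kinds. The members were 8 genes, *C3*, *C1qa*, *C1qb*, *Cfb*, *Cfp*, *C3ar1*, *C5ar1* and *Cd55*, and each was read from the probe sets annotated to that symbol alone. By that rule 7 of the 8 genes had a probe set, among 14217 genes on the arrays, and 9 probe sets represented them among 31042. All 4 probe sets of *Cfb* are shared with *C2* and carry no single name. The members were chosen by measured values, since *C3* was much higher with every Sprague-Dawley plasma than with autologous plasma, and comparisons with autologous plasma are therefore descriptions, with no test.

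The cells came from 2 healthy adult male Brown Norway rats, BN1 and BN2, about 180 days old. They were cultured for 6 h at 500000 cells per culture in medium with 20% plasma, and the RNA of each culture went onto 1 Affymetrix rat array, 8 in all. The 5% IH plasma was a pool from 5 male Sprague-Dawley rats exposed as pups to intermittent hypoxia at 5% oxygen (IH) for 1 h daily on postnatal days 2 to 6. The 10% IH plasma was a pool from 3 rats exposed in the same way at 10% oxygen, and control plasma a pool from 8 rats kept at 21% oxygen. All of these rats gave blood as adults of the same age (PD114 in the labels, PD being the postnatal day). Autologous plasma, the background, came from the Brown Norway cell donors themselves, so it differed from the other plasmas at least in strain and in age of the rat. The paper also names different housing sites for the strains, and an overnight fast for the Sprague-Dawley rats alone. The labels of the autologous arrays disagree on which donor's plasma was used. Only 1 pool was made of each plasma, and the 2 arrays of a group therefore vary by cell donor and not by plasma pool.

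Complement is a chain of plasma proteins that tags microbes and damaged cells for removal. It starts from antibody bound by C1q, from lectins or by spontaneous turnover of C3, and every route meets at the cleavage of C3. The fragments C3a and C5a act on receptors of myeloid cells, while membrane proteins such as CD55 take the convertases apart on the body's own cells. The liver makes most plasma complement, and monocytes and macrophages make *C3*, *C1q* chains and properdin locally.

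The promoters of the members whose level moved between Sprague-Dawley plasmas are shown, since the arrays measure the transcripts that start there. Sequences are from RefSeq, build GRCr8 of the Brown Norway genome, and hold 250 bases before and 50 bases after the start of each gene. Of the members, 6 were matched by symbol, and *C5ar1* and *Cfb* are named only. *C3* lies at chr9:2201290-2201589 and *Cd55* at chr13:44438052-44438351, both on the minus strand, and capitals mark the letters TTNNGNAA on either strand, a core of the C/EBP motif.
C3: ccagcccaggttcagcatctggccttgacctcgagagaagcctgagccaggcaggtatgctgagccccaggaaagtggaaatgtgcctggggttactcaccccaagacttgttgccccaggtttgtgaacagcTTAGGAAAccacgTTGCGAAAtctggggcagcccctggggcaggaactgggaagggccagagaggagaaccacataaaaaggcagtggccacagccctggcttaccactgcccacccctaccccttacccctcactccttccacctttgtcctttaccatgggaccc
Cd55: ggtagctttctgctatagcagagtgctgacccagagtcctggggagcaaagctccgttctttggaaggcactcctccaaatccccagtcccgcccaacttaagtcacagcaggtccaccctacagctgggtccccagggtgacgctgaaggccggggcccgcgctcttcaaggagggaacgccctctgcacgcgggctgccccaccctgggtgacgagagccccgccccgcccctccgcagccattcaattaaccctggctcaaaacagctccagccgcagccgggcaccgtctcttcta
The *C3* window holds 2 such matches, which begin 117 and 104 bases before the start of the gene, and the *Cd55* window holds 0. At least 1 match was found in 41.3% of all 33469 promoters of the same length, and in 1 of the 6 member promoters. The STAT motif TTCNNNGAA, read in the same way, was found in 8.87% of promoters and among the members in *C1qa* alone. The NF-kB motif was found in 7.51% and among the members in *C1qb* alone. A match is a description of letters and does not show a bound factor.

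*C3*, the protein at the centre of the system, had log2 levels of 8.05 and 8.32 with 5% IH plasma, 8.17 and 8.14 with 10% IH plasma, 7.75 and 7.93 with control plasma and 4.50 and 4.69 with autologous plasma (donors BN1 and BN2 throughout). Every Sprague-Dawley array thus lay more than 3 log2 units above both autologous arrays. Relative to autologous plasma *C3* was 12.0-fold higher with 5% IH, 11.8-fold with 10% IH and 9.49-fold with control plasma. The log2 ratio within a donor was 3.55 and 3.63 with 5% IH, 3.67 and 3.45 with 10% IH, and 3.25 and 3.24 with control plasma. Among 14217 genes, *C3* ranked 15 from the highest ratio to autologous plasma with 5% IH, 13 with 10% IH and 15 with control plasma. These ratios chose the members and were not tested.

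The levels of *C3* with the IH plasmas lay close together and above those with control plasma. With 5% IH plasma *C3* was 1.27-fold higher than with control plasma (log2 ratio 0.34, standard error 0.121 from limma, n = 2 arrays per group), with 0.31 in BN1 and 0.38 in BN2. With 10% IH plasma it was 1.24-fold higher than with control plasma (0.32, standard error 0.121), with 0.42 in BN1 and 0.21 in BN2. The arrays of either IH plasma did not overlap those of control plasma. With 2 arrays per group such separation is easily met without a difference, and its share over all genes was not counted. The control arrays are also the same in both comparisons. Both differences met the study's criterion, a Rank Product p under 0.05 (p = 0.0042 with 5% IH and p = 0.0158 with 10% IH, permutation, 1-sided) and a log2 ratio beyond 0.263, which is 1.2-fold. Adjusted over all probe sets, limma's p was 1 with 5% IH and 0.92 with 10% IH. Leaving out the BN1 control array gave 0.25 with 5% IH and 0.22 with 10% IH, and leaving out the 5% IH array of BN2 gave 0.21 with 5% IH, each under the fold threshold. Between the IH plasmas *C3* differed by 0.03 (5% IH over 10% IH, 95% confidence interval -0.25 to 0.30), which met no criterion.

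**Figure D1:**
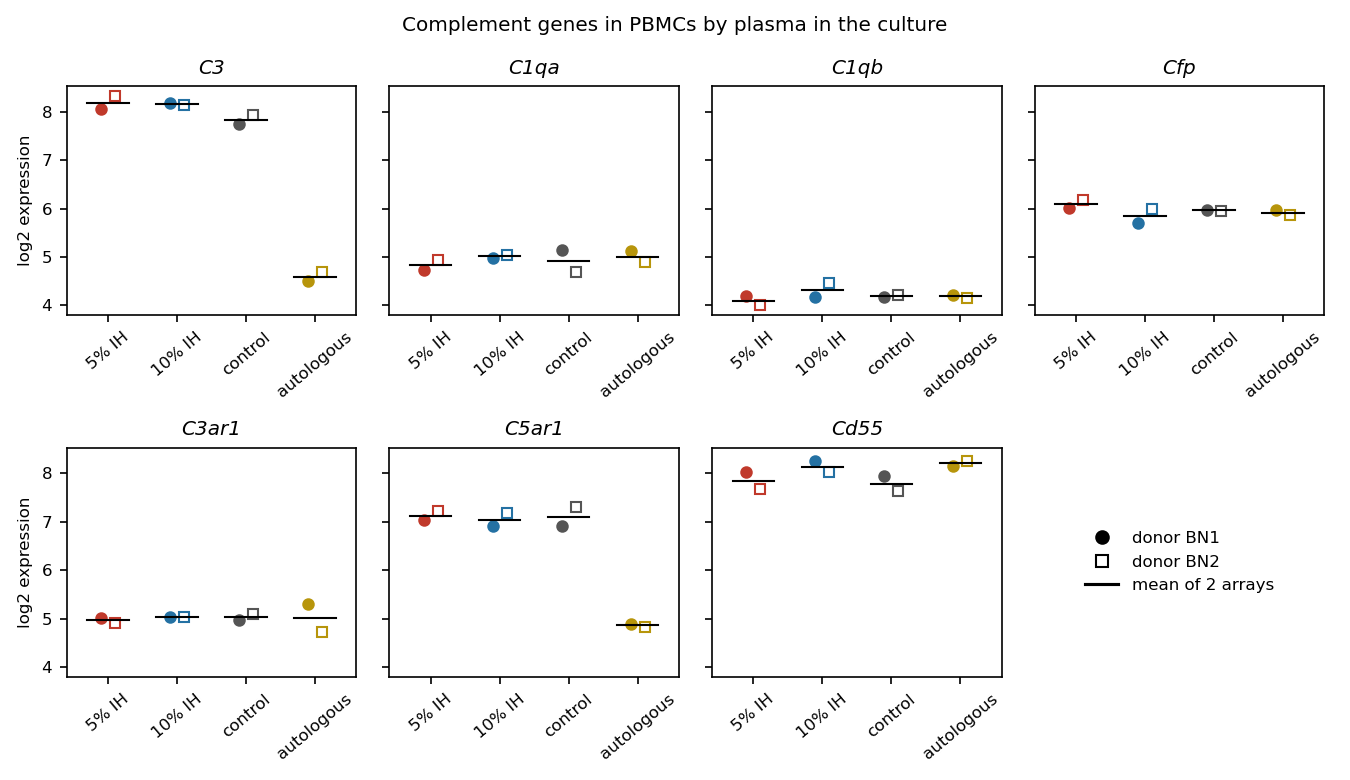
Log2 expression (vertical axis) of the 7 measured members in PBMCs cultured with 5% IH, 10% IH, control or autologous plasma, with a filled circle for donor BN1, an open square for donor BN2 and a black line at the mean of the 2 arrays. *C3* lies between 7.75 and 8.32 with the Sprague-Dawley plasmas and at 4.50 and 4.69 with autologous plasma, *C5ar1* is separated in the same way, and the other 5 genes are not.

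Of the receptors of the C3a and C5a fragments, *C5ar1* separated Sprague-Dawley from autologous plasma and *C3ar1* did not. *C5ar1*, the receptor of C5a on neutrophils and monocytes, had log2 levels of 7.03 and 7.22 with 5% IH plasma, 6.90 and 7.18 with 10% IH plasma, 6.91 and 7.30 with control plasma and 4.89 and 4.83 with autologous plasma. All 6 Sprague-Dawley arrays lay above both autologous arrays, and the 3 Sprague-Dawley groups overlapped. Relative to autologous plasma *C5ar1* was 4.79-fold higher with 5% IH, 4.53-fold with 10% IH and 4.73-fold with control plasma. It did not meet the criterion between Sprague-Dawley plasmas, where its log2 ratio was 0.02 for 5% IH over control (95% confidence interval -0.32 to 0.35) and -0.06 for 10% IH over control (-0.40 to 0.27).

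*C3ar1*, the receptor of C3a, had log2 levels of 5.00 and 4.92 with 5% IH plasma, 5.04 and 5.03 with 10% IH plasma, 4.98 and 5.09 with control plasma and 5.29 and 4.72 with autologous plasma. The autologous arrays were the highest and the lowest of the 8, so the groups overlapped. Its log2 ratio to autologous plasma was -0.05 with 5% IH, 0.03 with 10% IH and 0.02 with control plasma, where the donors went in opposite directions in each comparison. Its mean lay at percentile 42.2 of all probe sets, and it did not meet the criterion between Sprague-Dawley plasmas.

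The C1q chains, which bind antibody and start the classical pathway, were low on the arrays, with means at percentile 41.1 of all probe sets for *C1qa* and 29.1 for *C1qb*. *C1qa* had 4.73 and 4.93 with 5% IH plasma, 4.98 and 5.05 with 10% IH plasma, 5.14 and 4.68 with control plasma and 5.12 and 4.90 with autologous plasma. *C1qb* had 4.19 and 4.01 with 5% IH plasma, 4.17 and 4.46 with 10% IH plasma, 4.17 and 4.21 with control plasma and 4.21 and 4.16 with autologous plasma. Neither chain separated any plasma from autologous plasma. Neither met the criterion between Sprague-Dawley plasmas, with log2 ratios to control of -0.08 and -0.09 with 5% IH and 0.10 and 0.12 with 10% IH for *C1qa* and *C1qb*. The control arrays of *C1qa* had an SD of 0.320, and its ratio was -0.30 with 5% IH without the BN2 control array and 0.33 with 10% IH without the BN1 control array, both beyond the fold threshold. *C1qc*, the remaining chain, had -0.07 for 5% IH over control and 0.07 for 10% IH over control and did not meet the criterion either.

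*Cfp* encodes properdin, which stabilizes the convertase of the alternative pathway and is made by leukocytes. Its brighter probe set had 6.01 and 6.17 with 5% IH plasma, 5.71 and 5.98 with 10% IH plasma, 5.98 and 5.95 with control plasma and 5.98 and 5.86 with autologous plasma. Its other probe set had 5.30 and 5.46 with 5% IH plasma, 5.59 and 5.44 with 10% IH plasma, 5.44 and 5.18 with control plasma and 5.23 and 5.09 with autologous plasma. The probe sets disagreed in sign for 10% IH plasma, with log2 ratios to control of -0.12 and 0.20, and for 5% IH over 10% IH plasma, with 0.24 and -0.13. None of these met the criterion.

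*Cfb*, the enzyme subunit of the alternative pathway convertase, could not be read apart from *C2*, its counterpart in the classical pathway. Of the 4 probe sets annotated to both genes, the dimmest had 3.96 and 4.04 with 5% IH plasma, 3.61 and 3.83 with 10% IH plasma, 3.67 and 3.65 with control plasma and 3.40 and 3.36 with autologous plasma. Its 5% IH arrays were the highest of the 8. It met the criterion with 5% IH plasma against control (log2 ratio 0.33) and against 10% IH plasma (0.28), with limma's adjusted p = 1 and 0.981. The other 3 shared probe sets had 5% IH ratios to control of -0.03 to 0.01 and met the criterion in no comparison between Sprague-Dawley plasmas. None of the 4 is counted among the members.

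*Cd55*, which encodes decay-accelerating factor, was the one regulator among the members. Its brighter probe set had 8.02 and 7.67 with 5% IH plasma, 8.24 and 8.02 with 10% IH plasma, 7.94 and 7.63 with control plasma and 8.15 and 8.26 with autologous plasma. The 10% IH arrays lay above those of control plasma without overlap, while the 5% IH arrays overlapped them. As for *C3*, the share of all genes separated in this way was not counted. With 10% IH plasma *Cd55* was 1.27-fold higher than with control plasma (log2 ratio 0.34, standard error 0.151 from limma, n = 2 arrays per group), with 0.30 in BN1 and 0.38 in BN2, and met the criterion (permutation p = 0.0106, adjusted p = 0.92 from limma). With 5% IH plasma its ratio to control was 0.06 (95% confidence interval -0.29 to 0.40) and did not meet it. Compared directly, *Cd55* was lower with 5% IH than with 10% IH plasma (log2 ratio -0.29, with -0.23 in BN1 and -0.35 in BN2, permutation p = 0.0231, adjusted p = 0.981 from limma), although 1 array of 5% IH reached the level of the lower array of 10% IH.

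The other *Cd55* probe set had 6.42 and 5.94 with 5% IH plasma, 7.16 and 6.36 with 10% IH plasma, 6.18 and 6.17 with control plasma and 6.29 and 6.96 with autologous plasma. It met the criterion in the same comparisons, with log2 ratios of 0.58 for 10% IH over control (0.97 in BN1 and 0.19 in BN2) and -0.58 for 5% IH over 10% IH. For the brighter probe set, leaving out the BN2 control array gave 0.19 for 10% IH over control. Leaving out the 10% IH array of BN1 gave 0.23 for the same ratio and -0.17 for 5% IH over 10% IH, and leaving out the 5% IH array of BN2 gave -0.11 for the last, each inside the fold threshold. Relative to autologous plasma it had ratios of -0.36 with 5% IH, -0.07 with 10% IH and -0.42 with control plasma, and the arrays of 5% IH and control plasma lay below both autologous arrays.

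By the criterion, 1 of the 7 measured members (*C3*) was higher with 5% IH than with control plasma, against 1.46% of 14217 genes higher and 2.49% in either direction. With 10% IH plasma, 2 of the 7 (*C3* and *Cd55*) were higher than with control plasma, against 2.04% of genes higher and 4.3% in either direction. Between 5% IH and 10% IH plasma 1 of the 7 (*Cd55*) was lower, against 1.85% of genes lower and 4.47% in either direction. The other 6 members had log2 ratios of -0.21 to 0.24 between 5% IH and 10% IH plasma. *C3* was known to respond when the members were chosen. By limma's adjusted p, 0 of 31042 probe sets passed 0.05 in these 3 comparisons (0% of genes), while 790, 1612 and 1452 passed it unadjusted. With no difference at all, a threshold of 0.05 would pass about as many of 31042 probe sets, or more. Both IH comparisons use the same control arrays. The median log2 ratio of the 7 members to control was 0.02 with 5% IH and 0.10 with 10% IH, and over all genes it was -0.00 in each.

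**Figure D2:**
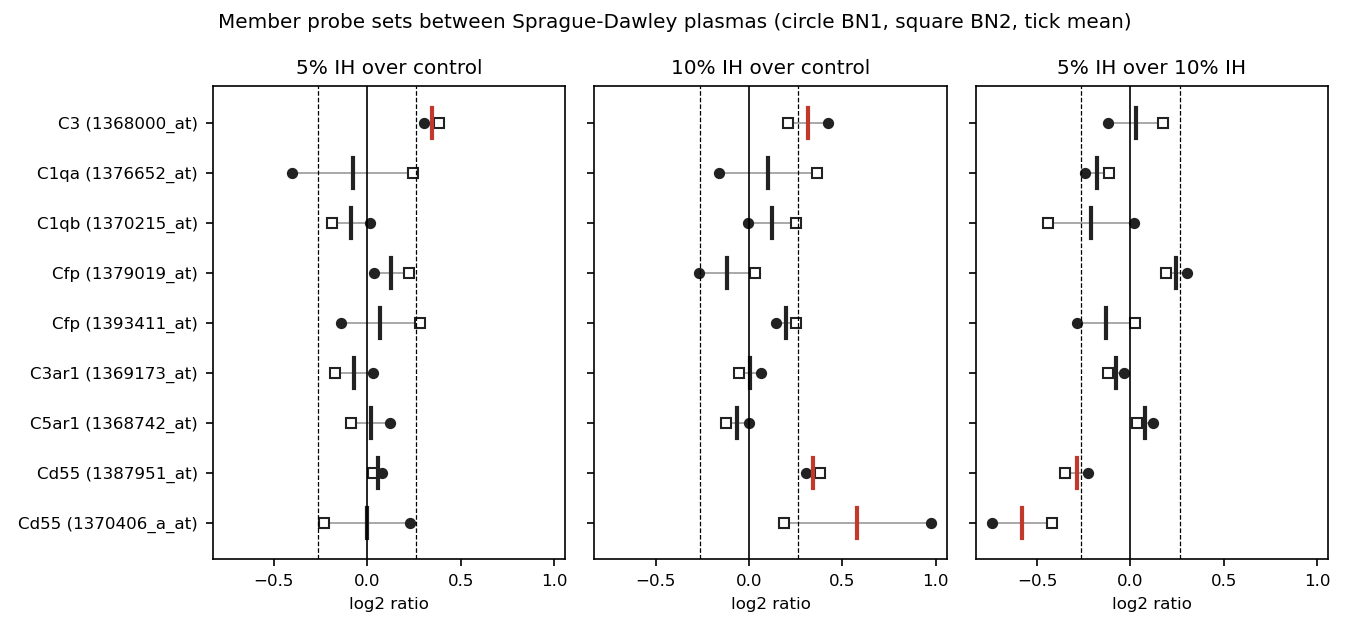
Log2 ratio between Sprague-Dawley plasmas (horizontal axis) of the 9 member probe sets, with a filled circle for donor BN1, an open square for donor BN2 and a tick at the mean, red where the criterion was met, and dashed lines at 0.263 in either direction. *C3* meets it over control with both IH plasmas (0.34 and 0.32), both *Cd55* probe sets meet it with 10% IH over control (0.34 and 0.58) and with 5% IH over 10% IH (-0.29 and -0.58), and the donors lie on opposite sides of 0 for several of the other probe sets.

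Monocyte markers separated the plasmas as *C3* and *C5ar1* did. *Cd14*, the lipopolysaccharide co-receptor, had 10.21 and 10.40 with 5% IH plasma, 9.93 and 9.94 with 10% IH plasma, 9.78 and 10.03 with control plasma and 4.48 and 4.78 with autologous plasma. *Csf1r*, the receptor of the monocyte growth factor M-CSF, had 7.74 and 8.05 with 5% IH, 7.80 and 7.94 with 10% IH, 7.63 and 8.04 with control and 4.53 and 5.37 with autologous plasma. Of 7 monocyte markers measured, 5 were more than 1.2-fold higher than with autologous plasma in cells of both donors with each Sprague-Dawley plasma, and *Cd163* and *Fcgr3a*, with mean levels at percentiles 10.1 and 44.1, were not. Over all genes, 4.3% were so higher with 5% IH, 3.32% with 10% IH and 4.01% with control plasma. The mean level over the list was 7.35 to 7.49 with 5% IH, 7.26 to 7.35 with 10% IH, 7.19 to 7.33 with control and 5.28 to 5.64 with autologous plasma. The 7 T cell markers did not separate the plasmas, with list means of 9.64 to 9.70 with 5% IH, 9.65 to 9.75 with 10% IH, 9.65 to 9.66 with control and 9.62 to 9.70 with autologous plasma. Fewer cells of a type and less RNA per cell cannot be told apart in these bulk cultures, and the part of the monocyte markers in the levels of *C3* and *C5ar1* was not tested.

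Between 5% IH and control plasma, 2 of the 7 monocyte markers met the criterion beside *C3*, namely *Cd14* (log2 ratio 0.40) and *Adgre1* (0.54), the macrophage receptor F4/80. Of all genes, 1.46% were higher there by the criterion. Between 10% IH and control plasma 0 of the 7 met it, where 4.3% of all genes did in either direction. The log2 ratios of the 7 ran between -0.21 (*Cd163*) and 0.20 (*Lyz2*, lysozyme) with a median of 0.04, beside 0.32 for *C3*. Of the 7, *Lyz2*, *Fcgr3a* (0.15) and *Cd68* (0.11) were higher with 10% IH than with control plasma in cells of both donors. *Cd14* (0.37) and *Adgre1* (0.55) also met the criterion between 5% IH and 10% IH plasma, where *C3* did not. In that comparison 4.47% of all genes met it in either direction. Among the markers of other cells, *Hbb*, a haemoglobin chain, and *Pf4*, a platelet chemokine, lay above percentile 99 of all probe sets in mean level. The mean of 4 neutrophil markers was 5.09 to 5.10 with 5% IH, 4.80 to 5.18 with 10% IH, 5.02 to 5.05 with control and 4.58 to 5.06 with autologous plasma. NK cell markers (6 genes) averaged 7.42 to 7.53 with 5% IH, 7.45 to 7.52 with 10% IH, 7.46 to 7.50 with control and 7.55 to 7.62 with autologous plasma. B cell markers (3 genes) averaged 9.31 to 9.36 with 5% IH, 9.15 to 9.43 with 10% IH, 9.33 to 9.38 with control and 9.07 to 9.26 with autologous plasma. Red cell markers (3 genes) averaged 10.71 to 10.84 with 5% IH, 10.83 to 10.94 with 10% IH, 10.67 to 10.87 with control and 10.85 to 11.00 with autologous plasma. None of these lists set the autologous arrays apart by as much as the monocyte markers did.

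Relative to autologous plasma, the members past 1.2-fold in cells of both donors were *C3* and *C5ar1* with each Sprague-Dawley plasma, 2 of 7, both higher, where 4.3% of genes were so higher with 5% IH, 3.32% with 10% IH and 4.01% with control plasma. The rule used these comparisons, and nothing is read from the count. The 4 members other than *C3*, *C5ar1* and *Cd55* had ratios of -0.18 to 0.17 with 5% IH, -0.07 to 0.13 with 10% IH and -0.10 to 0.04 with control plasma. The dimmer *Cfp* probe set was past 1.2-fold with 10% IH in both donors, with 0.36 in BN1 and 0.35 in BN2. The brighter one, which represents the gene, had -0.26 and 0.12.

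**Figure D3:**
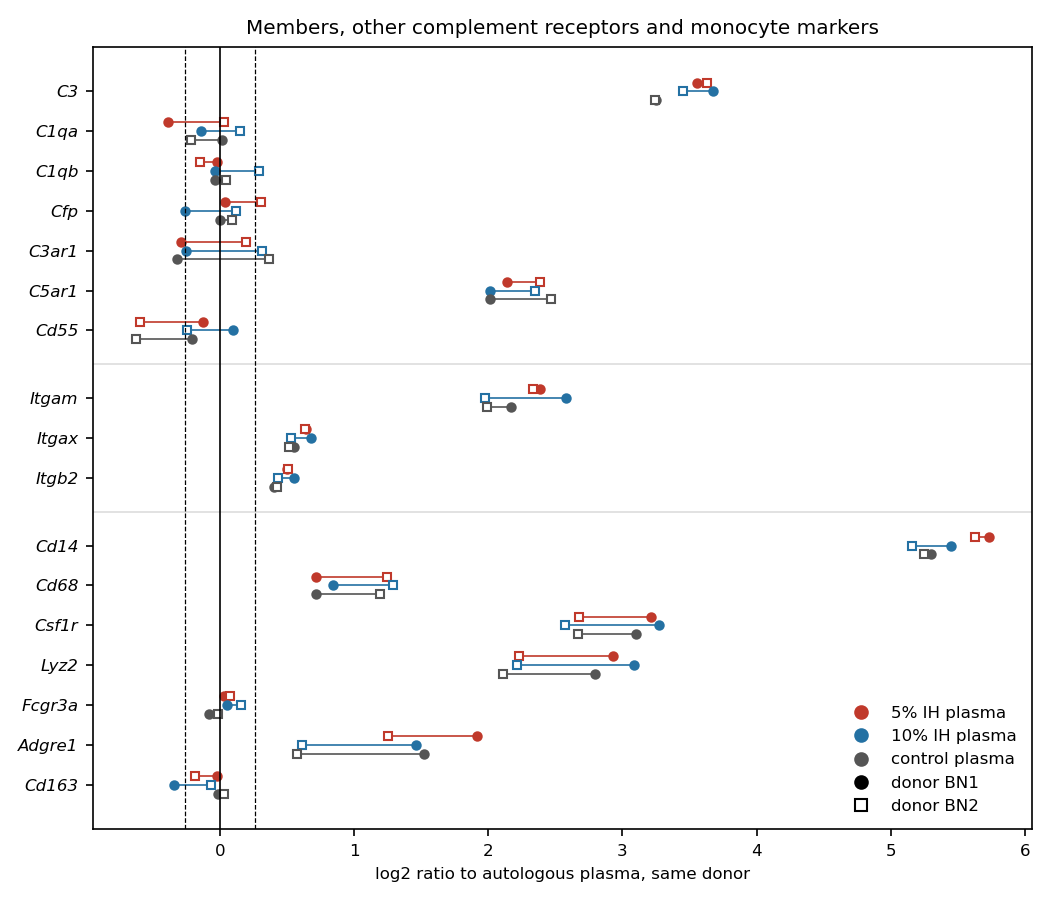
Log2 ratio to the autologous array with cells of the same donor (horizontal axis) for the 7 measured members, 3 integrin chains of complement receptors and 7 monocyte markers, by plasma (red 5% IH, blue 10% IH, grey control), with filled circles for BN1, open squares for BN2 and dashed lines at 0.263 in either direction. *C3* (3.24 to 3.67) and *C5ar1* (2.02 to 2.47) stand with *Itgam*, *Csf1r* and *Lyz2*, and the other 5 members lie between -0.63 and 0.37.

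A wider list of 46 complement genes, of which 37 were measured, was read in the same way. The integrin chains of the receptors for the C3 fragment iC3b were all more than 1.2-fold higher with each Sprague-Dawley than with autologous plasma in cells of both donors. *Itgam*, the CD11b chain of complement receptor 3, had 7.10 and 7.46 with 5% IH, 7.29 and 7.11 with 10% IH, 6.88 and 7.12 with control and 4.71 and 5.13 with autologous plasma, log2 ratios to autologous of 2.36, 2.28 and 2.08. *Itgax*, the CD11c chain of complement receptor 4, had ratios of 0.64 with 5% IH, 0.60 with 10% IH and 0.53 with control plasma, and *Itgb2*, the chain that pairs with both, had 0.50, 0.49 and 0.41. *Cr2*, the receptor of C3d on B cells, had 0.09, -0.07 and 0.01. Some listed genes were lower than with autologous plasma. *Clu* (clusterin) had -0.37 with 5% IH, 0.01 with 10% IH and -0.35 with control plasma, and *Cr1l* (Crry) had -0.30, -0.17 and -0.33. *C5*, at percentile 7.75 in mean level, had -0.11, -0.20 and -0.26. Of these, only *Clu* with control plasma was past 1.2-fold lower in cells of both donors. *Cfd* (complement factor D) had 0.31, 0.51 and 0.08. *Fcna* and *Fcnb*, the ficolins that start the lectin pathway, had mean levels at percentiles 34.5 and 27.6. Their ratios were 0.52 and 0.36 with 5% IH, 0.48 and 0.54 with 10% IH and 0.58 and 0.33 with control plasma. Unlike the integrin chains, *Fcna* was past 1.2-fold in cells of both donors with 5% IH only, and *Fcnb* with 10% IH only. With control plasma the donors had 0.24 and 0.92 for *Fcna* and 0.41 and 0.25 for *Fcnb*.

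Of the 30 measured genes on this list that are not members, 1 met the criterion with 5% IH against control plasma and 2 with 10% IH, all higher, where 1.46% and 2.04% of all 14217 genes were higher. Counts this small are not read as a result about the list. *Itgam* was higher with 5% IH by 0.28 (0.21 in BN1 and 0.34 in BN2, 0.16 when the BN1 control array was left out and 0.10 when the 5% IH array of BN2 was). *Cfd*, complement factor D, which cleaves factor B, was higher with 10% IH by 0.43, with 0.15 in BN1 and 0.70 in BN2, and its ratio was 0.13 when the 10% IH array of BN2 was left out. Its mean level was low, at percentile 22.9 of all probe sets. *Clu*, clusterin, an inhibitor of the terminal complex that platelets also carry, was higher with 10% IH than with control plasma by 0.36, with 0.62 in BN1 and 0.11 in BN2. It was lower with 5% IH than with 10% IH plasma (-0.39), the 1 gene of the 30 that met the criterion there, where 1.85% of all genes were lower. These *Clu* ratios were 0.13 and -0.16 when the 10% IH array of BN1 was left out, and 0.12 and -0.19 when its probe sets were averaged. That array also had the highest mean of 4 platelet markers, 9.61, against 9.33 in BN2 with 10% IH, 9.33 and 9.24 with 5% IH, 9.39 and 9.34 with control and 9.52 and 9.54 with autologous plasma, and among those markers *Itga2b* met the criterion between the IH plasmas (-0.27). The red cell marker *Alas2*, the first enzyme of haem synthesis in erythroid cells, met it for 10% IH over control plasma (0.31, with 0.58 in BN1 and 0.03 in BN2) and was also highest in that array, at 10.72. *Hbb* was highest there too, at 14.05, but the red cell marker *Slc4a1* was lowest there of all 8 arrays, at 7.70. The mean of the 3 red cell markers was 10.83 in that array and 10.94 in the 10% IH array of BN2. Both *Cd55* probe sets were highest among Sprague-Dawley arrays in the 10% IH array of BN1, and the part of platelet and red cell RNA in *Clu* and *Cd55* was not tested. Limma's adjusted p was 1 for *Itgam* and 0.92 for *Cfd* and *Clu* over control, and 0.981 for *Clu* between the IH plasmas.

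Of all 37 measured genes, 2 met the criterion with 5% IH and 4 with 10% IH over control, all higher, against 1.46% and 2.04% of all genes, and these counts include the members. In the classical pathway (5 genes measured), the lectin pathway (7) and the terminal pathway (6), 0 genes met the criterion in any comparison between Sprague-Dawley plasmas. Among *C3* and the alternative pathway genes (3 measured), 1 met it with 5% IH and 2 with 10% IH over control. Among the 10 measured regulators, 0 met it with 5% IH and 2 with 10% IH (*Cd55* and *Clu*), both also lower with 5% IH than with 10% IH plasma. *Cr1l*, the rodent regulator Crry, had 0.03 for 5% IH over control and 0.16 for 10% IH over control, and *Cd46*, a cofactor for the cleavage of C3b, had -0.02 and 0.15. *Cd59*, which blocks the terminal complex and is annotated as *Cd59b*, had 0.02 and -0.17. The median over the 37 genes was 0.02 with 5% IH and 0.07 with 10% IH.

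**Figure D4:**
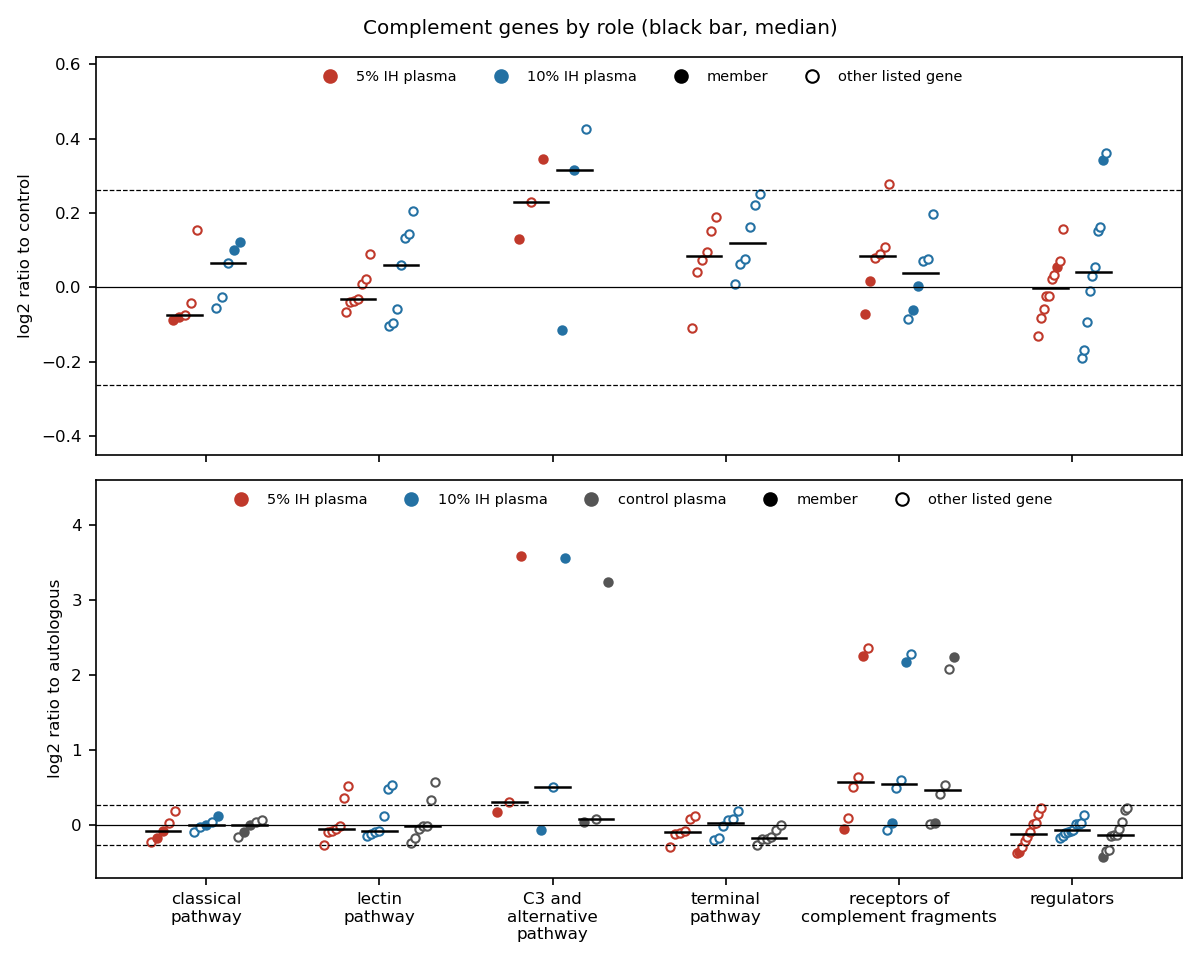
Log2 ratio to control plasma (upper panel) and to autologous plasma (lower panel) of the 37 measured complement genes by role, for 5% IH (red), 10% IH (blue) and control plasma (grey), with filled points for members, open points for other genes, black bars at the medians and dashed lines at 0.263 in either direction. In the upper panel the points past the threshold are *C3* and *Itgam* with 5% IH and *C3*, *Cfd*, *Cd55* and *Clu* with 10% IH, and in the lower panel *C3* lies highest with each plasma.

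The genes with the profile closest to that of *C3* over the 8 arrays were found by the root mean square difference between log2 values, each less its own mean. *Lilrb4*, an inhibitory immunoglobulin-like receptor of myeloid cells, was closest (difference 0.0709), with ratios to autologous plasma of 3.50 with 5% IH, 3.40 with 10% IH and 3.21 with control plasma. It was followed by *Mpeg1*, a pore-forming protein of macrophages (0.150), *Pilra*, a paired immunoglobulin-like receptor (0.173), *Ier3*, an immediate early response gene (0.182), and *Fcgr1a*, the high-affinity IgG receptor (0.213). Relative to control plasma, the 5 genes ranged between 0.12 and 0.30 for 5% IH plasma and between -0.08 and 0.19 for 10% IH plasma, where *C3* itself had 0.34 and 0.32.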

How the data were processed

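The authors hybridized RNA of 8 PBMC cultures to Affymetrix rat arrays, 2 per plasma, and deposited log2 values of 31042 probe sets, quantified in Expression Console and normalized by Robust Multichip Analysis (RMA). The submitters' processing notes also name Partek, with no role or version given. RMA sets all arrays to 1 distribution and shrinks ratios of dim probe sets. The arrays carry no read depth, and their number limits the precision. No batch is given in the sources used here.

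A gene was represented by the brightest probe set, by its mean over the 8 arrays, among those annotated to that symbol alone (436 probe sets had several symbols and 9780 had none). Sprague-Dawley plasmas were compared by the study's criterion: a Rank Product p under 0.05 and a ratio beyond 1.2-fold. The paper does not state further settings. A 1-sided p, the 4 between-array ratios and 100 permutations of values within arrays were chosen here. The Rank Product was coded anew in Python 3.11.15. Over control it called 963 probe sets with 5% IH, close to the paper's count, and 2156 with 10% IH, more than the paper reports. Limma 3.58.1 in R 4.3.3, fitted over all 8 arrays with no donor term, gave standard errors, 95% confidence intervals and p-values, with p adjusted by Benjamini and Hochberg across every probe set. Both tests were run on simulated data with independent noise in each array. The planted changes were larger than those of *C3* and the brighter *Cd55* probe set between Sprague-Dawley plasmas. Calls at these smaller sizes were therefore not checked. With 2 arrays against 2 no exact permutation test of 1 gene can reach p under 0.05. The Rank Product p tells how extreme the ranks of a probe set are among all probe sets of the same arrays. Limma's p sets a ratio against the variation between the 2 cell donors, pooled over the 4 groups and with information shared across probe sets. Neither p covers variation between plasma pools, since only 1 pool was made of each plasma.

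Arrays of the same number share a cell donor and so are paired. Deviations from the group means correlated at 0.240 for 5% IH and control, 0.165 for 5% IH and 10% IH and 0.0590 for 10% IH and control, and at -0.0833, -0.171 and -0.00387 for 5% IH, 10% IH and control with autologous, so the pairing rests on the shared donor and not on these correlations.

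Genes named were the members, the other complement genes with the largest ratios (up to 8 per comparison) among those that met the criterion, or past 1.2-fold against autologous plasma, with the same direction in both donors, and the 5 genes closest to *C3* in profile. *Cr2*, *C1qc*, *Cd46* and *Cd59*, and *Cr1l* between Sprague-Dawley plasmas, were named after their values were seen. The members and lists were chosen with earlier results of these data known. The alternatives were limma in place of the Rank Product, the donor as a block, 2-sided p, leaving out probe sets under percentile 40 in mean level, quantile normalization, median centring, averaging the probe sets of a gene, 1.5-fold, and leaving out each array.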

Additional observations from a re-analysis of the deposited data

Results flagged for a closer look

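The 2 cell donors moved in opposite directions for *C3ar1* between control and autologous plasma, with a log2 ratio of -0.32 in BN1 and 0.37 in BN2. With 1 array per donor and plasma the difference between donors was not tested.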

How the results depend on the processing

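By the criterion, 1 member was called with 5% IH against control plasma, 2 with 10% IH against control and 1 with 5% IH against 10% IH. With the replicate block, the Rank Product over the paired ratios within each donor called 1, 2 and 1 as well, while limma, with or without the donor in the fit, called 0, 0 and 0. At 1.5-fold in place of 1.2-fold the counts were also 0, 0 and 0. With a 2-sided p, the filter on dim probe sets (which removed *C1qb*), quantile normalization, median centring or averaged probe sets they were 1, 2 and 1. Leaving out 1 array gave 0 to 2, 1 to 2 and 1 to 3, and the losses of *C3* and *Cd55* are given with their values above. The gains were *C1qa*, *C1qb* and *Cfp*. Against autologous plasma, where 2 members were past the fold with each plasma, a single donor decides a gene when 1 array is left out. The counts of members then were 4 to 4 with 5% IH, 3 to 4 with 10% IH and 3 to 4 with control plasma. The share of all genes past the fold under that looser rule was not counted, so nothing is read from the rise.

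Leaving out 1 array turned the sign of several small ratios. For 5% IH over control the ranges were -0.30 to 0.15 for *C1qa*, -0.18 to 0.21 for *C5ar1* and -0.12 to 0.23 for *Cd55*. For 10% IH over control they were -0.12 to 0.33 for *C1qa*, -0.0228 to 0.27 for *C1qb*, -0.0518 to 0.0618 for *C3ar1*, -0.26 to 0.14 for *C5ar1* and -0.25 to 0.0197 for *Cfp*. For 5% IH over 10% IH they were -0.10 to 0.16 for *C3* and -0.0577 to 0.22 for *C5ar1*. The 10% IH ratio of *Cfp* was 0.0427 when its probe sets were averaged, which disagree in sign. The cause was not tested for the other changes.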
